A study of Sus scrofa with 63 samples.

Results

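ARG1, SDS and HPD are 3 genes of amino acid breakdown that were followed in pig skin that had been exposed to the blister agent sulfur mustard, which alkylates DNA and proteins. They are 3 of 6765 genes with a single symbol in the annotation of the array, and each is measured by 1 of 23999 probe sets, so no choice between probe sets was needed. The genes were picked with their differences between exposed and control skin at 24 h and later already known. Those differences are therefore given as descriptions, with a standard error and no p. Tests are given only for the first hours, for the sham animals and for other listed genes. The control arrays in the sham test entered the choice of the genes, and the sham arrays did not.

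Arginase 1, the product of ARG1, splits arginine into ornithine and urea. It completes the urea cycle in the liver, and it is also made by myeloid cells, where it competes with nitric oxide synthase for arginine and feeds ornithine to polyamine and proline synthesis. Serine dehydratase, the product of SDS, turns serine into pyruvate and ammonia and is known as a liver enzyme of gluconeogenesis from amino acids. HPD encodes 4-hydroxyphenylpyruvate dioxygenase, which acts after tyrosine aminotransferase in the breakdown of tyrosine.

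Female Yorkshire crossbred pigs were depilated and received 400 µL of undiluted agent for 8 min on the abdomen, which gave lesions of 3 cm, and punches of 8 mm were hybridized with 10 µg of total RNA each. At each of 9 times (1, 2, 4, 24, 48, 72, 168, 336 and 514 h) there were 3 arrays of exposed sites, 1 from a sham animal, prepared in the same way without agent, and 3 of unexposed control sites. The control sites lay on the exposed animals, 3 animals a time, so a control site is skin of a treated pig, whereas the sham was a 4th animal. The last time is 514 h in the sample labels, a little later than the day named in the protocol text. Each time was a cohort of its own with its own sacrifice days, so time after exposure and cohort cannot be told apart. Exposed and control arrays of a time with the same replicate number shared a sacrifice day, and here a pair means such 2 arrays. The labels do not say that the number marks an animal, and the fit took all 63 arrays as independent.

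All values are log2 signals made by the authors with RMA, a summary of the probes of a probe set that compresses differences of dim probe sets, so a fold of a dim probe set understates that in the RNA. Array medians lay between 7.75 and 7.86, and precision is limited by how many arrays a group has. In a bulk biopsy, fewer cells of a type and less RNA per cell cannot be told apart. Skin markers fitted the labelled tissue, with KRT1 and KRT10, keratins of the upper epidermis, at means of 13.5 and 13.6 over the 63 arrays. Skeletal muscle was present in part of the biopsies, and the mean of 7 muscle markers on an array ran between 6.79 and 14.0. All 3 genes are best known from the liver. Of 9 measured hepatocyte markers, ALB, albumin, averaged 6.21 with no array above 6.64, and APOA2, FGB, FGG and APOH averaged 5.46, 5.09, 5.14 and 6.12. TTR and AHSG averaged 7.18 and 7.29, while APOA1 at 11.1 and SERPINA1 at 10.6 were bright.

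In control skin all 3 genes were dim. Over the 27 control arrays ARG1 averaged 5.32 ± 0.59, SDS 6.48 ± 0.19 and HPD 5.55 ± 0.79 (log2 signal, SD, n = 27). These levels lay at the 9.51, 25.7 and 12.1 percentiles of all probe sets in the same arrays. In exposed skin of 24 to 72 h ARG1 reached the 93.1 percentile and SDS the 83.0 percentile, while HPD stood at the 33.1 percentile. Levels of different probe sets depend on their probes, so these positions describe how bright a probe set was and not how abundant a transcript was.

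**Figure D1:**
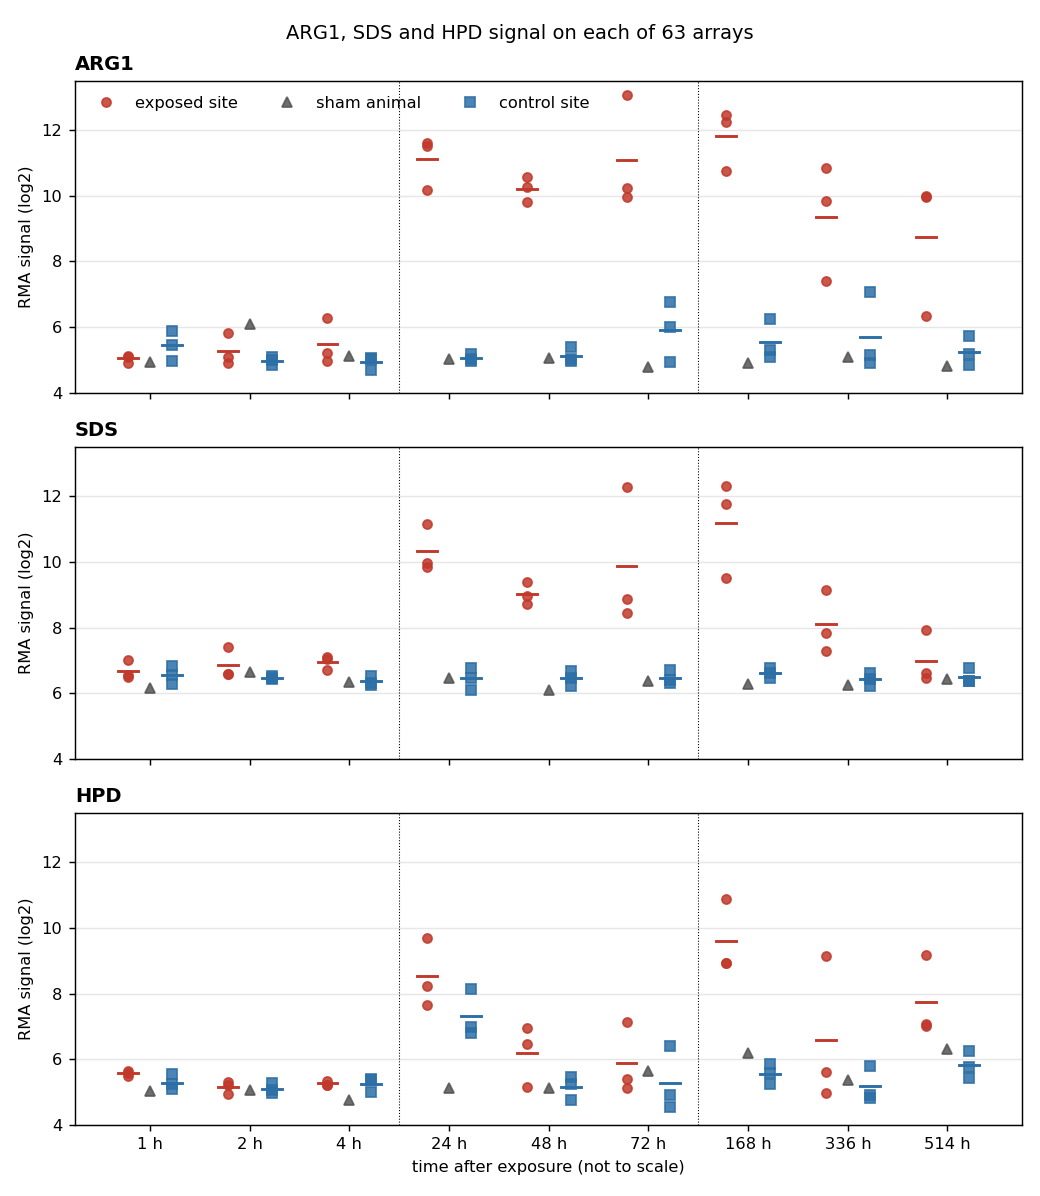
Log2 RMA signal of ARG1, SDS and HPD on each of 63 arrays (vertical axis) at the 9 times (horizontal axis, not to scale), with exposed sites as circles, sham animals as triangles and control sites as squares; horizontal bars are the means of 3 arrays. ARG1 and SDS were near control levels until 4 h and high in every exposed array of 24 to 168 h, while HPD was high in both exposed and control sites of 24 h and highest in exposed sites of 168 h.

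In the first 4 h none of the 3 genes differed between exposed and control sites beyond the error of the fit. ARG1 read 4.92, 5.10 and 5.13 in exposed sites of 1 h, against 4.93 in the sham animal and 5.89, 5.47 and 4.97 in control sites. By 2 h it read 4.89, 5.83 and 5.08 in exposed sites, 6.11 in the sham animal and 4.83, 5.09 and 5.01 in control sites. The 4 h values were 6.28, 5.20 and 4.96 in exposed sites, 5.13 in the sham animal and 5.06, 5.02 and 4.69 in control sites. The groups overlapped at each of these times, and the sham animal of 2 h lay above every exposed array of 1 and 2 h. Over the 3 times ARG1 differed by 0.15 ± 0.43 (log2, exposed minus control, SE; 95% interval -0.71 to 1.02), with an adjusted p of 0.935 in limma over all probe sets and a higher exposed value in 7 of 9 pairs.

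SDS showed small positive differences in the same window that did not pass the fit across all probe sets. It read 6.50, 6.57 and 7.00 in exposed sites of 1 h, 6.14 in the sham animal and 6.56, 6.82 and 6.28 in control sites. Next, at 2 h, it read 6.57, 6.58 and 7.40 in exposed sites, 6.65 in the sham animal and 6.43, 6.51 and 6.46 in control sites. At 4 h the values were 7.09, 7.05 and 6.71 in exposed sites, 6.33 in the sham animal and 6.51, 6.32 and 6.26 in control sites. Exposed arrays lay above all control arrays at 2 and at 4 h, as did 4.57% and 5.52% of all probe sets at those times. The difference over the window was 0.37 ± 0.33 (95% interval -0.30 to 1.04; limma adjusted p = 0.692; higher in 7 of 9 pairs).

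The error of that fit is shared by all 27 groups, and the later exposed groups of SDS spread widely. Within the arrays of 1 to 4 h alone, the adjusted p of SDS in limma was 0.119 over all probe sets. An exact two-sided permutation of the exposed and control labels within each time, over 8000 arrangements with a smallest possible p of 0.00025, gave an unadjusted p of 0.01 for SDS, 0.498 for ARG1 and 0.156 for HPD. This permutation was chosen after the values were seen. The share of all probe sets called at 1 to 4 h was 5.48%, and 0 of the 3 genes were among them.

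HPD was close to its floor in the first hours. In exposed sites it read 5.65, 5.50 and 5.57 at 1 h, 5.21, 4.94 and 5.31 at 2 h, and 5.34, 5.23 and 5.21 at 4 h. The sham animals read 5.04, 5.06 and 4.74 at these times. Control sites read 5.54, 5.23 and 5.08 at 1 h, 4.97, 5.06 and 5.26 at 2 h, and 5.01, 5.36 and 5.38 at 4 h. The groups overlapped at every one of these times, and the difference over the window was 0.12 ± 0.39 (95% interval -0.67 to 0.91; limma adjusted p = 0.943; higher in 6 of 9 pairs).

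From 24 h on ARG1 was far above control sites. At 24 h it read 10.19, 11.62 and 11.52 in exposed sites, against 5.03 in the sham animal and 5.02, 5.17 and 4.96 in control sites. At 48 h the exposed sites read 10.57, 10.28 and 9.80, the sham animal 5.06 and the control sites 5.38, 5.03 and 4.96. At 72 h they read 10.23, 9.96 and 13.06, against 4.79 in the sham animal and 6.77, 4.93 and 6.00 in control sites. The lowest of these 9 exposed arrays was 3.03 log2 units above the highest of the 9 control arrays. Exposed arrays averaged 10.8 ± 1.06 and control arrays 5.36 ± 0.63 (SD, n = 9 each), a difference of 5.45 ± 0.43 (log2, SE), which is 43.6-fold. Of all probe sets 2.07% had no overlap with higher exposed arrays in this window, and 35.1% passed the limma test in either direction; since the gene was chosen on this contrast, nothing further is read from that.

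SDS had the same shape at a smaller size. It read 9.84, 9.96 and 11.16 in exposed sites of 24 h, 6.46 in the sham animal and 6.47, 6.77 and 6.10 in control sites. For 48 h the values were 9.39, 8.71 and 8.96 in exposed sites, 6.09 in the sham animal and 6.46, 6.22 and 6.68 in control sites. For 72 h they were 8.87, 8.45 and 12.27 in exposed sites, 6.37 in the sham animal and 6.72, 6.31 and 6.39 in control sites. All 9 exposed arrays lay above all 9 control arrays. The means were 9.73 ± 1.26 in exposed and 6.46 ± 0.23 in control arrays (SD, n = 9 each), which differed by 3.28 ± 0.33, or 9.68-fold. The highest exposed array of both ARG1 and SDS was the same one, replicate 3 of 72 h, and without it the difference was 5.12 for ARG1 and 2.87 for SDS.

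HPD was unlike the other two in these days, because its control sites were also high at 24 h. Exposed sites of 24 h read 9.70, 8.24 and 7.65, the sham animal 5.13 and the control sites 8.14, 6.98 and 6.79. The 3 control sites of 24 h lay above all 24 other control arrays, which ran from 4.54 to 6.40 with a median of 5.25. The sham animal of 24 h lay within the range of those other controls. Of all probe sets 0.283% had 24 h control arrays that lay above all other control arrays, 68 probe sets in all. The sham of 24 h, unlike those of the other 8 times, was sacrificed on a day of its own, weeks after the exposed animals of that time. Whether the high control values belong to the exposed animals, their cohort or the hours after exposure was not tested.

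At 48 h HPD read 5.15, 6.95 and 6.46 in exposed sites, 5.14 in the sham animal and 4.74, 5.46 and 5.24 in control sites. The 72 h values were 5.12, 5.39 and 7.14 in exposed sites, 5.63 in the sham animal and 4.91, 4.54 and 6.40 in control sites. Exposed and control ranges overlapped at 24, 48 and 72 h, although the exposed array was the higher in all 9 pairs. Exposed arrays averaged 6.87 ± 1.54 and control arrays 5.91 ± 1.22 (SD, n = 9 each). The difference was 0.96 ± 0.39, or 1.94-fold. It was 0.82 when the 24 h arrays were left out, and 1.57 against the sham arrays in place of the control arrays.

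At 168 h all 3 genes were high in exposed skin. ARG1 read 12.45, 12.25 and 10.76 in exposed sites, 4.92 in the sham animal and 5.09, 5.31 and 6.24 in control sites. SDS read 11.76, 12.32 and 9.50 in exposed sites, 6.28 in the sham animal and 6.46, 6.60 and 6.77 in control sites. HPD read 10.88, 8.94 and 8.95 in exposed sites, 6.18 in the sham animal and 5.57, 5.24 and 5.85 in control sites. No exposed array overlapped a control or sham array for any of the 3 genes at this time, as was so against control arrays for 17.1% of all probe sets in the upward direction. The differences at 168 h were 6.28 ± 0.74 for ARG1, 4.58 ± 0.57 for SDS and 4.04 ± 0.67 for HPD, and for each gene this was the largest mean difference of the 9 times. For HPD it was 16.4-fold.

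By 336 h the 3 genes had parted. ARG1 read 10.86, 9.84 and 7.40 in exposed sites, 5.08 in the sham animal and 7.06, 5.16 and 4.92 in control sites. SDS read 9.16, 7.84 and 7.28 in exposed sites, 6.26 in the sham animal and 6.61, 6.22 and 6.43 in control sites. HPD read 5.62, 4.96 and 9.13 in exposed sites, 5.38 in the sham animal and 4.92, 4.81 and 5.80 in control sites. ARG1 and SDS still lay above all control arrays, and in both replicate 3 was the lowest exposed array. HPD went the other way, with replicate 3 high and the other exposed arrays near control levels, so its ranges overlapped. Exposed arrays were above all control arrays for 14.2% of all probe sets at this time.

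At 514 h ARG1 read 9.97, 9.98 and 6.33 in exposed sites, 4.82 in the sham animal and 5.19, 5.73 and 4.85 in control sites. SDS read 6.60, 7.92 and 6.46 in exposed sites, 6.44 in the sham animal and 6.77, 6.36 and 6.37 in control sites. HPD read 7.03, 9.17 and 7.06 in exposed sites, 6.30 in the sham animal and 5.41, 5.75 and 6.26 in control sites. At this time ARG1 and HPD lay above all control arrays, as did 15.3% of all probe sets, whereas 2 of 3 SDS arrays lay within the control range. The differences were 3.51 ± 0.74 for ARG1, 0.49 ± 0.57 for SDS and 1.95 ± 0.67 for HPD.

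Over 168 to 514 h the difference was 4.48 ± 0.43 for ARG1 (22.3-fold), 2.25 ± 0.33 for SDS (4.76-fold) and 2.46 ± 0.39 for HPD (5.49-fold). Exposed arrays averaged 9.98 ± 2.02 and control arrays 5.50 ± 0.72 for ARG1 (SD, n = 9 each). For SDS the exposed mean was 8.76 ± 2.12 and the control mean 6.51 ± 0.19, and for HPD the exposed mean was 7.97 ± 1.92 and the control mean 5.51 ± 0.47. Exposed arrays thus spread more widely than control arrays for all 3 genes. The exposed array was the higher in 9 of 9 pairs for ARG1 and HPD and in 8 of 9 for SDS. Over the whole window the ranges of all 3 genes overlapped, while 0.783% of all probe sets had no overlap with higher exposed arrays, and 21.9% passed the limma test in either direction.

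**Figure D2:**
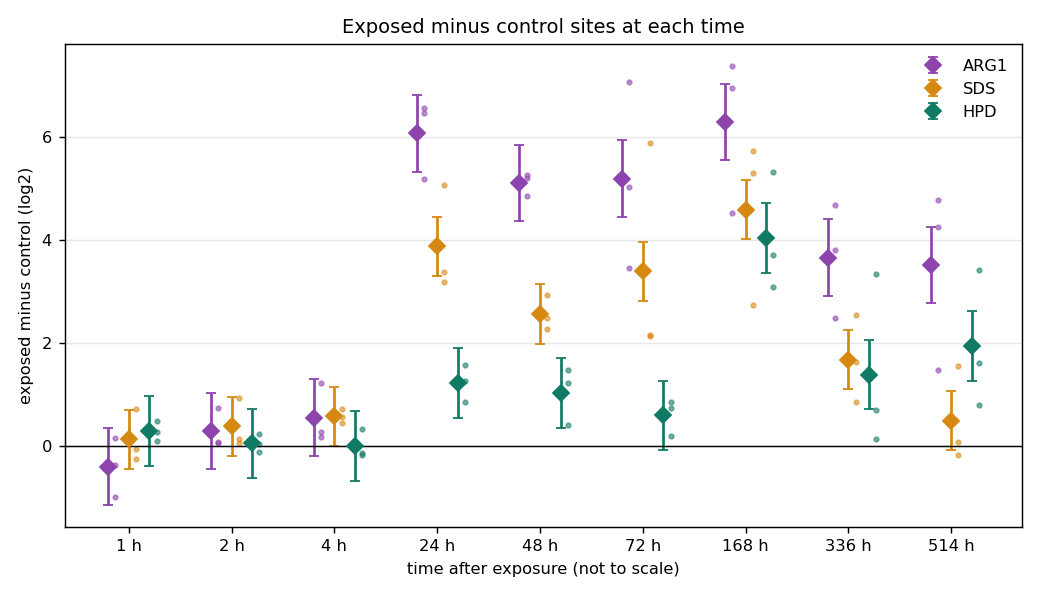
Exposed minus control sites (log2, vertical axis) for ARG1, SDS and HPD at each time (horizontal axis, not to scale); diamonds with bars are the difference of 3 against 3 arrays ± SE of the fit, and small points are differences of arrays with the same replicate number. ARG1 exceeded 3 log2 units at every time from 24 h on, SDS was down to 0.49 by 514 h, and HPD was largest at 168 h, at 4.04.

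Sham animals, handled without agent, did not differ from control sites for any of the 3 genes in limma. The control arrays of this test also entered the choice of the genes, so it is not wholly apart from that choice. The control sites lay on the exposed pigs and no untreated pig was measured, so an effect of handling was not tested. Over the 9 times ARG1 averaged 5.10 in sham and 5.32 in control arrays, a difference of -0.23 ± 0.35 (SE; adjusted p = 0.895; 95% interval -0.94 to 0.48). SDS differed by -0.14 ± 0.27 (adjusted p = 0.92; -0.69 to 0.40), and HPD by -0.15 ± 0.32 (adjusted p = 0.936; -0.79 to 0.50). Of all probe sets 0.0208%, 5 in number and all lower in sham, passed this test. The sign of the HPD difference rests on the 24 h sham array, and without it the difference was 0.11 (adjusted p = 0.963). Sham values of HPD were at or above the control means at 168, 336 and 514 h, where sham minus control was 0.44 ± 0.55 (adjusted p = 1, with 0.00417% of all probe sets passing).

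Labels carry a histology score for each site. At 24 to 72 h epidermal necrosis averaged between 3.67 and 4 in exposed groups and 0 in sham and control groups, while the pustule score differed between exposed sites of a time. At 72 h the site with the highest pustule score, 4, gave 13.06 for ARG1 and 12.27 for SDS, against 10.23 and 8.87 at score 3 and 9.96 and 8.45 at score 0. At 24 h scores of 0, 0 and 3 went with 9.84, 9.96 and 11.16 for SDS, but with 10.19, 11.62 and 11.52 for ARG1. At 48 h scores of 2, 3 and 1 went with 10.57, 10.28 and 9.80 for ARG1 and 9.39, 8.71 and 8.96 for SDS, so the site of the highest score was not the highest there. HPD read 9.70, 8.24 and 7.65 at scores of 0, 0 and 3 at 24 h, 5.15, 6.95 and 6.46 at scores of 2, 3 and 1 at 48 h, and 5.12, 5.39 and 7.14 at scores of 3, 0 and 4 at 72 h. It was thus lowest in the site of the highest score at 24 h and highest in it at 48 and 72 h. With 3 sites a time these are descriptions.

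**Figure D3:**
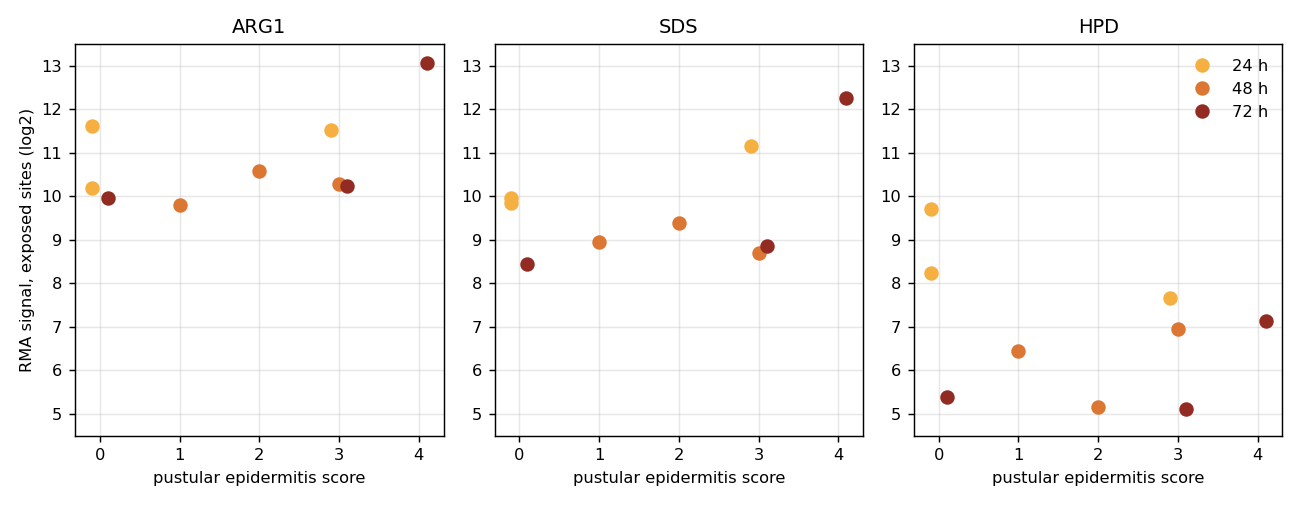
Log2 RMA signal of ARG1, SDS and HPD in the 9 exposed sites of 24, 48 and 72 h (vertical axis) against the pustule score of the site in the labels (horizontal axis, points of different times shifted slightly sideways). The site of 72 h with score 4 was the highest of the 9 for ARG1 and SDS, at 13.06 and 12.27, and sites of score 0 were as high as sites of score 3 for ARG1.

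In the later times replicate 3 had the highest total healing score of the exposed sites, where normal skin scores 13. At 168 h the scores were 6, 6 and 9 in replicates 1, 2 and 3, at 336 h 5, 6 and 10, and at 514 h 6, 7 and 9. ARG1 and SDS were lowest in that site at all 3 times, whereas HPD was highest in it at 336 h and not at the other times. Replicate 3 also had its own sacrifice day at each time, which cannot be told apart from the score.

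ARG1 and SDS moved together from array to array. Over the 63 arrays their Pearson r was 0.915, which is mostly the difference between groups, and for deviations from the group means of the 54 exposed and control arrays it was 0.677. HPD did not follow them within groups, with r of the deviations at -0.066 against ARG1 and 0.134 against SDS. The 54 arrays share animals and processing periods, so these are descriptions. HPD had a different regularity, in that exposed and control sites of the same number deviated from their group means together, with r = 0.655 and Spearman's rho = 0.665 over 27 pairs, and r = 0.609 without the 2 farthest. For ARG1 r was 0.365 and for SDS -0.238 over the same pairs. These 3 correlations were computed after the values had been seen.

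**Figure D4:**
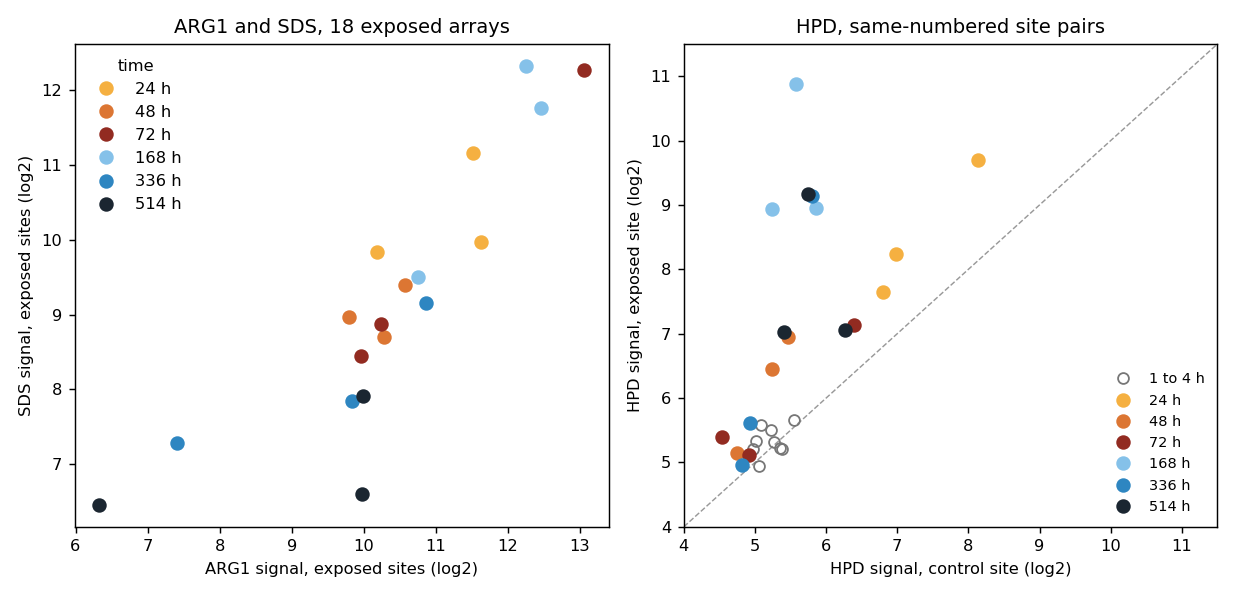
Left, SDS against ARG1 (both log2 RMA signal) in the 18 exposed arrays of 24 to 514 h, coloured by time; right, HPD in the exposed site (vertical axis) against the control site of the same time and replicate number (horizontal axis), with equality as a dashed line. The 3 arrays highest for ARG1, at 12.25 to 13.06, were also the 3 highest for SDS, at 11.76 to 12.32, and the 3 pairs of 24 h have the highest control values of HPD, 6.79 to 8.14.

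The genes whose pattern was most like that of ARG1 over the 63 arrays were TNC, an extracellular matrix protein of wounds (r = 0.958), CDA, cytidine deaminase (0.954), CXCL8, the neutrophil chemoattractant interleukin 8 (0.938), SDS (0.915) and ERO1A, an oxidase of the endoplasmic reticulum (0.911). By deviations from group means they were MMP1, a collagenase (0.832), the calgranulins S100A8 (0.732) and S100A12 (0.701), CXCL8 (0.691) and SDS (0.677). SDS was most like PNP, purine nucleoside phosphorylase (0.928), BCAT1, which starts the breakdown of branched-chain amino acids (0.927), IL4R, the interleukin 4 receptor (0.922), CCR1, a chemokine receptor (0.920), and FOSL2, an AP-1 factor (0.919). By deviations SDS was most like TREM1 (0.906) and CLEC5A (0.872), both receptors of myeloid cells, and then CDA (0.792), ADGRE5 (0.780) and SNAI1 (0.767). HPD was most like MFSD4A, a membrane transporter (0.841), TSPAN33, a tetraspanin (0.820), PAPSS2, which makes the sulfate donor for sulfation (0.791), POR, the reductase of cytochromes P450 (0.781), and KIAA1324 (0.771). By deviations it was most like SLC25A39 (0.743), GJB1, a gap junction protein (0.659), NCSTN (0.644), MFSD4A (0.611) and BSG (0.599). MFSD4A was also 1 of 24 named genes, HPD included, with 24 h control arrays above all other control arrays. The list of likeness for HPD shares no gene with that of ARG1 or of SDS by either measure.

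Many markers of myeloid cells, but not all, were higher in the windows in which ARG1 and SDS were. Their part in the result was not tested. Of 11 listed neutrophil markers 6 were measured, of which 5 were higher at 24 to 72 h and 4 at 168 to 514 h in limma (share of all named genes higher 30.8% and 18.9%). S100A9, a calgranulin listed here as a neutrophil marker, averaged 10.7 in exposed and 8.00 in control arrays at 24 to 72 h, a difference of 2.74 ± 0.40 (adjusted p = 6.76e-07). ELANE, neutrophil elastase, made mainly in the bone marrow, was dim at 6.34 and 6.37 in exposed and control arrays. The mean of the 6 markers ran from 8.08 to 9.32 in exposed, 7.00 to 7.42 in sham and 6.98 to 8.01 in control arrays of 24 to 72 h. At 168 to 514 h it ran from 8.63 to 9.49 in exposed, 7.09 to 7.58 in sham and 7.06 to 8.16 in control arrays. So this mean did not overlap between exposed and control arrays in either window. Its markers shared in this unevenly. At 24 to 72 h and 168 to 514 h S100A8 had 1.11 and 1.43, S100A12 1.28 and 1.85, and LTF 1.80 and 2.44. PGLYRP1 had 0.23 and 0.14, and ELANE -0.03 and 0.07. Which cells held these transcripts was not tested.

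Of 7 measured markers shared by myeloid cells 6 were higher in both of these windows, and their mean ran from 9.50 to 10.6 in exposed and 8.14 to 9.42 in control arrays of 24 to 72 h. Of 6 measured macrophage markers 3 were higher at 24 to 72 h and 5 at 168 to 514 h, among them CD163, a scavenger receptor, by 1.60 ± 0.22 (adjusted p = 2.12e-07) and 0.78 ± 0.22 (adjusted p = 0.00801). Of all named genes 30.8% and 18.9% were higher in these windows. C1QC and C1QA, the brightest of the 6, had 0.02 and -0.09 at 24 to 72 h, then 0.69 and 0.57 at 168 to 514 h. MARCO had 0.03 and -0.03. The means of the 6 macrophage markers were 10.2 to 11.3 in exposed and 9.36 to 10.6 in control arrays at 24 to 72 h. At 168 to 514 h both means overlapped, the shared myeloid one at 8.74 to 10.2 in exposed and 8.33 to 9.41 in control arrays and the macrophage one at 9.88 to 11.0 in exposed and 9.58 to 10.5 in control arrays. At 514 h the macrophage mean was 9.95, 10.2 and 9.88 in exposed and 9.69, 10.5 and 9.93 in control arrays. The shared myeloid mean of that time was 8.74, 9.08 and 8.86 in exposed and 8.60, 9.41 and 8.76 in control arrays. The neutrophil mean of 514 h was 9.44, 9.39 and 8.85 in exposed and 7.69, 8.16 and 7.51 in control arrays. Deviations from group means over the 27 exposed arrays were set against those of the neutrophil, shared myeloid and macrophage means, in this order. For ARG1 r was 0.698, 0.301 and 0.084, for SDS 0.510, 0.641 and 0.251, and for HPD -0.143, 0.228 and 0.252. With the mean of 6 keratinocyte markers ARG1 had r = -0.102, SDS -0.129 and HPD 0.156. The largest in size for HPD was -0.311, with the muscle mean. These are descriptions over arrays that share animals.

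Most keratinocyte markers fell in exposed skin, but not at the last time. Of 6 measured, 4 were lower at 24 to 72 h (14.3% of all named genes were), and at 168 to 514 h 4 were lower (10.5% of all named genes) and IVL, involucrin, was higher by 0.93 ± 0.16 (adjusted p = 2.28e-05). Their mean ran from 8.97 to 10.5 in exposed and 10.8 to 11.7 in control arrays of 24 to 72 h, and from 8.43 to 12.1 in exposed and 11.4 to 11.9 in control arrays of 168 to 514 h. At 514 h alone the keratinocyte mean was 12.0, 11.7 and 12.1 in exposed arrays and 11.4, 11.5 and 11.6 in control arrays, so it lay above the controls there. The muscle mean was 7.31 to 13.4 in exposed and 10.8 to 13.9 in control arrays of 24 to 72 h. With the muscle mean as a covariate the differences at 24 to 72 h were 5.62 for ARG1, 3.29 for SDS and 0.76 for HPD, and at 168 to 514 h they were 4.68, 2.27 and 2.24.

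Processing dates fall into 3 periods, and each period took in 1 time from each window, which balances the windows but not the single times. Dates of in vitro transcription split the arrays of 1, 24, 168 and 336 h. At 1 h 1 date held all 3 exposed and 2 control arrays, and within it the differences were -0.17 for ARG1, 0.14 for SDS and 0.42 for HPD, against -0.39, 0.14 and 0.29 over all arrays of 1 h. At the other times the dates held few arrays. At 24 h the first held 1 exposed and 1 control array and the second 2 of each. At 168 h the first held 2 of each and the second 1 of each. At 336 h the first held 2 exposed and 1 control array, and the second 1 exposed and 2 control arrays. Within dates, in this order, the ARG1 differences were 6.35 and 5.92 at 24 h, 6.58 and 5.67 at 168 h, and 3.29 and 2.36 at 336 h. For SDS they were 4.38 and 3.62, 5.36 and 3.04, and 1.89 and 0.96. HPD differed by 0.68 and 1.50 at 24 h and by 4.37 and 3.38 at 168 h, and by 0.36 and 3.82 at 336 h, where 1 of the dates held only replicate 3 of the exposed sites.

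To set the 3 genes beside their pathways, 134 other genes were listed by role, of which 91 were measured. In exposed sites of 1 to 4 h 6 of the 91 rose and 0 fell (limma, adjusted over all probe sets), against 2.85% and 2.73% of all named genes. Those higher at 24 to 72 h numbered 30 (33.0%, against 30.8% of all named genes) and those lower 7 (7.69%, against 14.3%). In the last window, 168 to 514 h, the counts were 20 higher (22.0%, against 18.9%) and 12 lower (13.2%, against 10.5%). Of the 91 genes, 13 belong to a list around the control of ARG1 and are not enzymes of amino acid metabolism. That list supplied 3 of the 6, 7 of the 30 and 7 of the 20 higher genes, and 1 of the 12 lower. These shares are therefore not those of the amino acid genes alone. The median change of the 91 genes was 0.07, 0.08 and 0.01 in the 3 windows, with medians of 0.02, 0.06 and 0.02 over all named genes. The count of 6 at 1 to 4 h fell to 2 with the arrays of that window fitted alone, and without replicate 3 of the exposed sites of 2 h or replicate 1 of those of 4 h it was also 2.

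Around ARG1, 23 of 32 listed genes of arginine metabolism were measured, and 9 were higher and 2 lower at 24 to 72 h, with a median of 0.09. In either direction 47.8% of the list was called then, against 45.1% of all named genes. ODC1, which makes putrescine from the ornithine that arginase releases, was higher in all 3 windows, by 0.90 ± 0.10 at 1 to 4 h (adjusted p = 1.82e-08), 1.33 ± 0.10 at 24 to 72 h (9.95e-14) and 0.81 ± 0.10 at 168 to 514 h (4.91e-08), and in 9 of 9 pairs each time. Its exposed and control means were 11.2 and 9.76 at 4 h and 12.4 and 10.1 at 24 h. SRM, spermidine synthase, was higher by 1.11 ± 0.10 at 24 to 72 h (adjusted p = 4.22e-11) and by 0.52 ± 0.10 later (0.000189). SAT1, which acetylates spermidine and spermine for removal, was higher by 0.30, 0.44 and 0.50 in the 3 windows (adjusted p = 0.021, lost in 8 of 28 other fits, 3.77e-05 and 1.55e-05). The enzyme that sends ornithine towards proline and glutamate, OAT, fell by 0.45 ± 0.10 at 24 to 72 h (adjusted p = 0.000343) and by 0.71 ± 0.10 at 168 to 514 h (6.06e-07). AGMAT, agmatinase, fell by 0.31 and 0.23 in these windows (adjusted p = 4.5e-05 and 0.0028). The antizyme genes OAZ1 and OAZ2 had 0.31 and 0.39 at 24 to 72 h, then 0.07 and 0.05 at 168 to 514 h.

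The enzymes that rebuild arginine from citrulline differed in when they changed. ASL, argininosuccinate lyase, was higher by 0.76 ± 0.08 at 24 to 72 h (adjusted p = 6.39e-10) and by 0.23 ± 0.08 at 168 to 514 h (0.038, lost in 11 of 28 other fits). ASS1, argininosuccinate synthase, had -0.10 ± 0.14 at 24 to 72 h (adjusted p = 0.662) and was higher by 0.53 ± 0.14 at 168 to 514 h (0.00565). Later minus earlier window, the change differed by -0.54 ± 0.11 for ASL (adjusted p = 0.00164) and by 0.62 ± 0.20 for ASS1 (0.0461), a test that 8.45% of all probe sets passed. DDAH1, which breaks down methylated arginines that inhibit nitric oxide synthase, was higher by 0.62 ± 0.10 at 168 to 514 h (adjusted p = 4.1e-06). NOS2, the inducible nitric oxide synthase that competes with arginase, had 0.06, -0.06 and -0.05 in the 3 windows (SE 0.05, adjusted p = 0.726, 0.396 and 0.547). At a 95% interval of -0.17 to 0.05 at 24 to 72 h, a change of its probe set as large as that of ASL lies outside. NOS3, another nitric oxide synthase of the list, had 0.36 at 24 to 72 h and -0.01 at 168 to 514 h.

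ARG2, the mitochondrial arginase, was higher by 0.47 ± 0.19 at 24 to 72 h (adjusted p = 0.044), 1.39-fold against 43.6-fold for ARG1. Its 3 probe sets differed, with changes of 0.47, 1.13 (adjusted p = 0.00463) and -0.02 (adjusted p = 0.804), and the call of the brightest was lost in 13 of 29 other fits. At 168 to 514 h ARG2 had 0.07 ± 0.19 (adjusted p = 0.844).

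Around SDS, 17 of 25 listed genes of serine and glycine metabolism were measured, with 4 higher and 2 lower at 24 to 72 h and 0 higher and 3 lower at 168 to 514 h. In either direction 35.3% and 17.6% of the list were called, against 45.1% and 29.3% of all named genes. PSAT1, an enzyme of serine synthesis, fell by 1.03 ± 0.09 at 24 to 72 h (adjusted p = 1.16e-11, lower in 9 of 9 pairs) and by 0.30 ± 0.09 at 168 to 514 h (0.013, lost in 2 of 28 other fits). SHMT1, which interconverts serine and glycine, fell by 0.52 ± 0.09 and 0.32 ± 0.09 (adjusted p = 2.34e-05 and 0.012). CTH, which makes cysteine from cystathionine, was higher by 0.32 ± 0.10 at 1 to 4 h (adjusted p = 0.046, lost in 17 of 28 other fits) and by 0.42 ± 0.10 at 24 to 72 h (0.000719, lost in 2 of 29). The folate enzymes MTHFD1 and MTHFD2 were higher by 0.37 and 0.35 at 24 to 72 h (adjusted p = 6.41e-05 and 0.023, lost in 1 and 5 of 29 other fits), and SLC1A4, a carrier of neutral amino acids, fell by 0.27 at 168 to 514 h (0.013). SDSL, the gene next to SDS in the pig genome, was among the listed genes not measured here.

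SDS opens a route from serine to glucose, and 8 of 10 listed genes of gluconeogenesis and transamination were measured. In either direction 37.5% of them were called at 24 to 72 h and 25% at 168 to 514 h, against 45.1% and 29.3% of all named genes. At 24 to 72 h PCK2, the mitochondrial phosphoenolpyruvate carboxykinase, was higher by 0.54 ± 0.12 (adjusted p = 0.000286). PC, pyruvate carboxylase, fell by 0.38 ± 0.14 (adjusted p = 0.034, lost in 10 of 29 other fits) and GPT, alanine aminotransferase, by 0.35 ± 0.10 (0.00412). PC and GPT fell again at 168 to 514 h, by 0.56 and 0.41 (adjusted p = 0.00333 and 0.0016), and 0 genes of this list were higher then.

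Around HPD, 13 of 21 listed genes of phenylalanine and tyrosine metabolism were measured, with 4 higher and 1 lower at 24 to 72 h and 2 of each at 168 to 514 h. In either direction 38.5% and 30.8% of the list were called, against 45.1% and 29.3% of all named genes. TAT, the aminotransferase that makes the substrate of HPD, was higher by 0.86 ± 0.16 at 24 to 72 h (adjusted p = 2.71e-05) and by 1.15 ± 0.16 at 168 to 514 h (5.24e-07), in 9 of 9 pairs each. Its second probe set gave 1.46 and 2.54 (adjusted p = 6.76e-05 and 9.98e-09). Over the 6 times from 24 h on, in order, TAT differed by 0.42, 0.18, 1.99, 2.15, 0.22 and 1.10. Like HPD it was largest at 168 h, but in control sites of 24 h it averaged 6.02, within its range over the other control groups. FAH and GSTZ1, enzymes after HPD in the pathway, had 0.28 ± 0.14 and -0.13 ± 0.06 at 24 to 72 h (adjusted p = 0.123 each), and GSTZ1 fell by 0.25 ± 0.06 at 168 to 514 h (0.00283).

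Of the remaining members of that list, PCBD2, a pterin dehydratase, was higher by 0.57 ± 0.08 at 24 to 72 h (adjusted p = 5.35e-07). MIF, a cytokine that also tautomerizes phenylpyruvate, was higher by 0.37 and 0.22 in the later windows (adjusted p = 0.000241 and 0.041, lost in 1 of 29 and 16 of 28 other fits). DDC, aromatic amino acid decarboxylase, fell by 0.21 and 0.24 (adjusted p = 0.04 and 0.035, lost in 14 of 29 and 11 of 28 other fits).

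Breakdown of other amino acids was covered by 17 of 33 listed genes, of which 5 rose and 0 fell at 24 to 72 h, and 4 rose and 2 fell at 168 to 514 h. In either direction 29.4% and 35.3% of the list were called, against 45.1% and 29.3% of all named genes. BCAT1 was higher by 1.27 ± 0.13 (adjusted p = 4.06e-10) and 0.60 ± 0.13 (0.000637) in these windows. Of 3 measured enzymes of the kynurenine route of tryptophan breakdown, KMO was higher by 0.78 ± 0.21 at 24 to 72 h and by 1.65 ± 0.21 at 168 to 514 h (adjusted p = 0.00347 and 1.88e-07), and KYNU by 0.57 ± 0.21 and 1.19 ± 0.21 (0.034, lost in 11 of 29 other fits, and 4.87e-05). HAAO, further down the route, had 0.16 ± 0.07 at 24 to 72 h (adjusted p = 0.069) and was higher by 0.24 ± 0.07 at 168 to 514 h (0.0068). Later minus earlier, these changes differed by 0.87 ± 0.30 for KMO (adjusted p = 0.066) and 0.62 ± 0.30 for KYNU (0.221), which did not pass the test. At 168 h alone, when ARG1, SDS and HPD had their largest mean differences, KMO differed by 2.47 and KYNU by 1.89. CDO1, cysteine dioxygenase, and ABAT, which degrades GABA, fell by 0.61 and 0.18 at 168 to 514 h (adjusted p = 0.011 and 0.037, lost in 2 of 28 and 11 of 27 other fits).

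**Figure D5:**
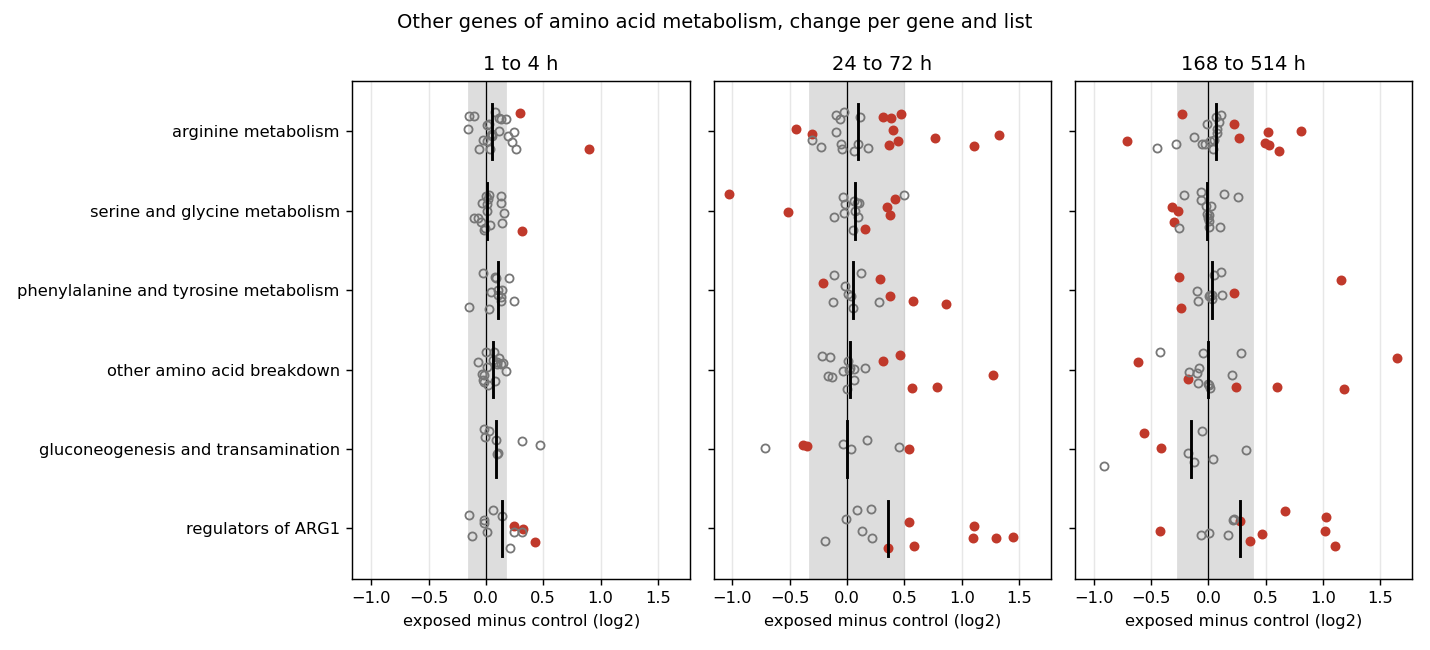
Exposed minus control change (log2, horizontal axis) of 91 other genes in 6 lists (rows) and 3 windows (panels); filled points passed limma at an adjusted p below 0.05, open points did not, black bars are list medians and the grey band runs over all named genes from percentile 10 to percentile 90. List medians lay between -0.15 and 0.36.

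A last list held cytokines, receptors and factors known from mouse and human cells to control ARG1, and MRC1, the mannose receptor, which is a macrophage marker and no known controller of it. All 13 were measured. Those that rose numbered 3, 7 and 7 in the 3 windows, and those that fell 0, 0 and 1. In either direction 23.1%, 53.8% and 61.5% of the list were called, against 5.59%, 45.1% and 29.3% of all named genes. The counts of 7 include MRC1, higher by 1.09 ± 0.12 and 0.67 ± 0.12 (adjusted p = 2.6e-09 and 6.32e-05). The list medians were 0.14, 0.36 and 0.28. IL4 and IL13, which induce ARG1 in macrophages, were higher by 0.24 ± 0.06 and 0.33 ± 0.09 at 1 to 4 h (adjusted p = 0.014 and 0.025, lost in 2 and 9 of 28 other fits), at dim levels of 6.82 and 6.57 for IL4 and 6.99 and 6.66 for IL13 in exposed and control arrays. IL4R, their shared receptor chain, was higher by 1.45 ± 0.11 at 24 to 72 h and 1.02 ± 0.11 at 168 to 514 h (adjusted p = 1.34e-13 and 2.69e-09). IL10, an anti-inflammatory cytokine, was higher by 1.30 ± 0.14 and 1.01 ± 0.14 (1.26e-09 and 6.87e-07), and TGFB1 by 0.59 ± 0.10 and 1.10 ± 0.10 (4.82e-06 and 4.54e-11). CEBPD was higher by 0.43 ± 0.13 at 1 to 4 h (adjusted p = 0.036, lost in 14 of 28 other fits) and by 1.10 ± 0.13 at 24 to 72 h (6.14e-09). CEBPB, a factor that drives arginase in macrophages, had 0.14, 0.22 and 0.22 (SE 0.12, adjusted p = 0.667, 0.175 and 0.196). PPARG, a lipid-sensing nuclear receptor, fell by 0.42 ± 0.14 at 168 to 514 h (adjusted p = 0.026, lost in 6 of 28 other fits).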

How the data were processed

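The authors deposited RMA values, log2 signals with 1 value for each probe set, per the submitters' processing notes, which also name Partek without a version. The 63 arrays were used as deposited, without 124 control probe sets. Names came from the supplied annotation (10099 probe sets with 1 symbol, 198 with several). Where a gene had several probe sets, the brightest by its mean on the 63 arrays stood for it. A single fit in limma 3.58.1 (R 4.3.3) took every array, with 1 mean per group and 36 residual degrees of freedom. Contrasts were averaged over 3 times per window, and two-sided p values took the Benjamini-Hochberg adjustment across 23999 probe sets, with a threshold of 0.05. Sham groups of 1 array are taken to vary like the others. Nothing says that arrays of a group came from separate litters, so p values speak only of these animals. Their error is the spread of arrays within a group, not the spread of differences between sites of an animal. Replicates differed by an SD of 0.231 to 0.583 over probe sets.

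The 3 genes, the lists and the comparisons were chosen with earlier results of these data known. Named besides the 3 genes were related enzymes, up to 3 genes called per list, window and direction, the 5 most alike per gene and some markers. NOS3, OAZ1 and OAZ2 were added from the arginine list outside these rules. The markers were not always the brightest of their list. LTF is brighter than S100A9 and ELANE, and CALML5, which enters only the mean, is brighter than IVL. The fit was tested on simulated data. Deviations of same-numbered exposed and control arrays had a mean r of 0.27, above 0.1 in 21 of 27 pairs, so these arrays were in part alike. Because the labels tie no number to an animal, the main fit took no pairing and treated the arrays as independent. A fit with the number as a block is given below. No sequences are printed.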

Additional observations from a re-analysis of the deposited data

Results flagged for a closer look

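The change between exposed and control sites differed between 168 to 514 h and 24 to 72 h for 11 named pathway genes, by limma's test of that difference itself (later window minus earlier, log2, adjusted p below the threshold over all probe sets, which 8.45% of them passed). It was larger or less negative later for PSAT1 (0.73), ASS1 (0.62), DDAH1 (0.53) and TGFB1 (0.52). It was smaller or more negative later for PCBD2 (-0.47), ODC1 (-0.52), ASL (-0.54), SRM (-0.59), PPARG (-0.62), BCAT1 (-0.67) and CEBPD (-0.89). ASL was thus higher mainly in the earlier window and ASS1 in the later one. KMO and KYNU are not among these 11 genes. Genes were mostly named for a large change in these same windows, so the count of 11 is not set against that share. OAZ1 and OAZ2, listed but not named by that rule, passed too, at -0.24 and -0.33 (limma adjusted p = 0.00691 and 0.0135). For ARG1, SDS and HPD this difference was not tested, since both windows were known when they were chosen.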

How the results depend on the processing

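ARG1, SDS and HPD kept the direction of their exposed minus control differences at 24 to 72 h and 168 to 514 h in every alternative run, with ranges of 5.14 to 5.84, 2.98 to 3.43 and 0.76 to 1.57 in the first window and 4.20 to 5.05, 2.17 to 2.43 and 2.02 to 2.69 in the second. Leaving out 1 array gave 5.12 to 5.64, 2.87 to 3.51 and 0.75 to 1.14, then 4.23 to 4.89, 2.06 to 2.53 and 2.03 to 2.73. At 1 to 4 h ARG1 turned to -0.12 (adjusted p = 0.97) against sham arrays, and leaving out 1 array gave 0.02 to 0.24. Sham minus control of HPD ran from -0.24 to 0.11 without 1 array, turning sign without the sham of 24 h. Pathway genes higher at 1 to 4 h (6) numbered 2 with the window fitted alone, 1 against sham, 3 after a second quantile normalization, 0 at a log2 change of at least 1, and 2 to 6 without 1 array (3 without replicate 2 of the 2 h controls). At that fold threshold, 24 to 72 h kept 7 genes that rose and 1 that fell, and 168 to 514 h kept 6 that rose with 0 that fell. Lower genes at 168 to 514 h (12) numbered 2 against sham. Without the 24 h arrays, an alternative chosen after seeing the data, 24 to 72 h had 19 higher and 4 lower. A replicate block (correlation 0.185) gave 7, 32 and 22 higher pathway genes in the 3 windows and ended none of the named calls. Arrays of the same number share a sacrifice day, but replicates 1 and 2 share theirs too, and the labels tie no number to an animal. Of 59 named calls 30 held in every fit and 29 were lost in at least 1, with 0 reversed. Those of the 59 given above without a count of losses were lost in at most 1 fit. A filter on dim probe sets (mean above 6.44) dropped HPD and 8 pathway genes. The extraction date as a block could not give sham minus control.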
